A study of Mus musculus with 10 samples.

Results

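Fc gamma receptors are the cell surface proteins through which leukocytes bind the constant part of IgG antibodies. The mouse genes examined were the activating receptors Fcgr1, Fcgr3 and Fcgr4, the inhibitory receptor Fcgr2b, and Fcer1g, which encodes the signalling chain that the activating receptors need. They were chosen by gene name, and all 5 were found among the 54532 genes of the count table. The table held bulk RNA sequencing of whole lung from wild-type (WT) mice in 3 groups. The LPS+TSLP group (4 libraries) received recombinant TSLP, thymic stromal lymphopoietin, an epithelial cytokine, as a pretreatment to LPS. The LPS group (3 libraries) received lipopolysaccharide, a bacterial cell wall component sensed by TLR4, and the Vehicle group (3 libraries) received neither according to its label. Dose, route, timing, age and strain were not given in the sources used here, and no label said whether the libraries of a group came from separate animals, so p-values measure the spread between these libraries.

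Immune complexes that crosslink an activating receptor cause phosphorylation of the ITAM, a cytoplasmic stretch with a pair of tyrosines, in the chain encoded by Fcer1g. Syk kinase then docks there and drives phagocytosis, oxidative burst and cytokine release. Fcgr2b carries an ITIM, a stretch with a lone tyrosine, which recruits the phosphatase SHIP1 (Inpp5d) and damps the same pathway. Lung macrophages, monocytes and neutrophils co-express activating and inhibitory receptors, and B cells carry Fcgr2b as their only Fc gamma receptor.

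The opposed signalling elements are shown because the comparison of activating and inhibitory genes turns on them. Both are read from the coding strand of the mouse build GRCm38, and capitals mark the tyrosine codons.
Fcer1g ITAM: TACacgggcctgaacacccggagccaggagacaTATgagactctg
Fcgr2b ITIM: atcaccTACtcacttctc
The Fcer1g stretch was coding bases 193 to 237 of the 258 in transcript Fcer1g-201, and its exons lay within chr1:171229889-171230072 on the minus strand. The Fcgr2b stretch was coding bases 949 to 966 of the 1020 in Fcgr2b-201, at chr1:170961071-170961088 on the minus strand.

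Fcgr2b (chr1:170958617-170976547, minus strand), Fcgr4 (chr1:171018920-171029761, plus strand) and Fcgr3 (chr1:171051174-171064935, minus strand) were neighbours in that order. Fcer1g (chr1:171229572-171234365, minus strand) lay farther along the same chromosome. Fcgr1 (chr3:96282909-96293969, minus strand) was on another chromosome. Fcgr2b and Fcgr3 were the closest relatives, with 86.7% identical bases over 782 aligned coding bases, against 64.1% to 67.3% for the other receptor pairs. Of the 50-base stretches in Fcgr3 transcripts, 9.58% also occurred in Fcgr2b, and 2.92% of those in Fcgr2b occurred in Fcgr3, so a minor part of their reads could not be told apart. No such stretch was shared between the other members.

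Total counts were 16175172 to 18374461 per library, and the members had 205 to 7711 counts each, so counting error was small beside the spread between libraries. LPS+TSLP replicate 1 stood apart: 13.1% of its counts were mitochondrial, against 1.996% to 6.50% in the other LPS+TSLP libraries, 1.20% to 2.58% in LPS and 1.11% to 1.27% in Vehicle. LPS replicate 1 was the only library with Xist RNA (190 CPM, at most 0.455 CPM elsewhere) and with no Ddx3y count. Ddx3y was at 57.7 to 96.1 CPM in the LPS+TSLP libraries, 70.6 and 89.3 CPM in the other LPS libraries, and 6.15 to 11.9 CPM in Vehicle. Sex was thus not uniform within the LPS group. Tissue markers fitted lung: 6 epithelial genes including Sftpc summed to 24070 to 37836 CPM in LPS+TSLP, 14434 to 38342 CPM in LPS and 25000 to 40221 CPM in Vehicle.

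In lungs given LPS, 4 of the 5 genes were called higher than in Vehicle lungs. Fcer1g rose 4.71-fold and Fcgr4 4.402-fold, and the inhibitory Fcgr2b and the activating Fcgr3 rose 2.76-fold and 2.15-fold. Fcgr1 was 2.54-fold higher without passing the test. For all 5 genes every LPS library lay above every Vehicle library. Called means an adjusted p under 0.05 in edgeR's quasi-likelihood test with Benjamini-Hochberg adjustment over 17139 genes. In this comparison 14.2% of all tested genes were called higher, 10.7% lower, 24.9% in either direction, and 24.7% had all LPS libraries above all Vehicle libraries. The median log2 fold change of the 5 genes was 1.47, against 0.0084 over all tested genes. In whole tissue, more cells of a type and more RNA per cell cannot be told apart.

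Fcer1g, the shared signalling chain, measured 470, 315 and 337 CPM (read counts scaled to the TMM-adjusted library size) in LPS replicates 1 to 3, and 56.2, 84.0 and 98.1 CPM in Vehicle replicates 1 to 3. The LPS libraries lay far above Vehicle, with no overlap. The log2 fold change was 2.23 ± 0.36 (SE, adjusted p = 0.00316, edgeR). This call was kept in each of the 22 alternative analyses, with log2 fold changes of 2.04 to 2.47.

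Fcgr4, an activating receptor of medium affinity for IgG2a and IgG2b found on neutrophils, monocytes and macrophages, measured 88.3, 75.4 and 92.2 CPM in LPS and 11.5, 16.4 and 30.2 CPM in Vehicle. The LPS libraries were tightly grouped and well above Vehicle. Its log2 fold change was 2.14 ± 0.49 (SE, adjusted p = 0.0121, edgeR). Without Vehicle replicate 1 it was 1.88 (adjusted p = 0.0600) and without Vehicle replicate 2 it was 2.03 (adjusted p = 0.0569).

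Fcgr3, the low-affinity activating receptor of macrophages, neutrophils and natural killer cells, measured 129, 144 and 203 CPM in LPS and 41.8, 62.3 and 118 CPM in Vehicle. The groups did not overlap, but Vehicle replicate 3 came close to LPS replicate 1. On the log2 scale the difference was 1.10 ± 0.36 (SE, adjusted p = 0.0448, edgeR). This was the weakest call of the family: it was lost in 8 of 22 alternatives, among them leaving out any LPS library (0.91 to 1.23, adjusted p = 0.0672 to 0.115) and scaling by library size alone (1.03, adjusted p = 0.0650).

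Fcgr1, the high-affinity activating receptor and a classical interferon-gamma target, measured 79.8, 81.2 and 72.5 CPM in LPS and 13.03, 37.4 and 41.3 CPM in Vehicle. The LPS libraries were nearly equal and all above Vehicle, where replicate 1 was far below the others. On the log2 scale this was 1.35 ± 0.58 (SE, adjusted p = 0.109, unadjusted p = 0.0400, edgeR). Fitted on the LPS and Vehicle libraries alone, the value was 1.37 with an adjusted p of 0.0268.

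Fcgr2b, the inhibitory receptor, measured 124, 169 and 233 CPM in LPS and 31.2, 55.7 and 104 CPM in Vehicle. All LPS libraries were above Vehicle, and both groups were spread. The log2 fold change was 1.47 ± 0.43 (SE, adjusted p = 0.0298, edgeR), between those of the activating receptors Fcgr1 and Fcgr4. The call was lost without LPS replicate 2 (1.49, adjusted p = 0.0582), LPS replicate 3 (1.23, adjusted p = 0.0796), Vehicle replicate 1 (1.14, adjusted p = 0.101) or Vehicle replicate 2 (1.37, adjusted p = 0.103). Without LPS replicate 1, the library with Xist, 3 of the 4 calls held: Fcgr2b was at 1.66, Fcgr4 at 2.11 and Fcer1g at 2.04 on the log2 scale, while Fcgr3 at 1.23 was not called.

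**Figure D1:**
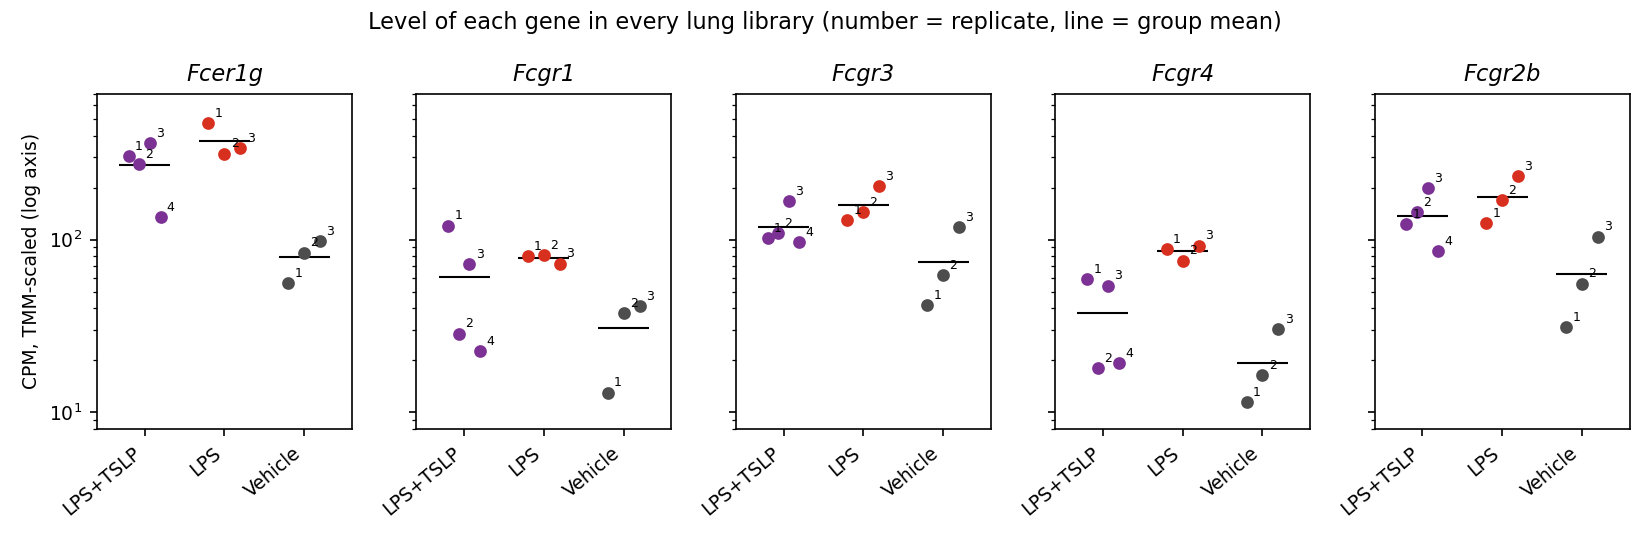
Level of each gene in CPM (log axis) in the 4 LPS+TSLP, 3 LPS and 3 Vehicle libraries, 1 point per library numbered by replicate, with a line at the group mean. In LPS every point lies above every Vehicle point for all 5 genes, and for Fcgr4 every LPS+TSLP point (18.1 to 59.1 CPM) lies below every LPS point (75.4 to 92.2 CPM).

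TSLP given before LPS left no receptor gene called as different from LPS alone, and no gene in the whole table was called (0%). At an unadjusted p under 0.05 the test counted 1388 genes (8.1%), and the DESeq2 Wald test called 35. All 5 members had fold changes below 1, with a median log2 value of -0.42 against 0.0213 over all tested genes. Fcgr4 was the member farthest from LPS, and the only one whose groups did not overlap; over all tested genes, 3.54% had every LPS+TSLP library below every LPS library.

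Fcgr4 measured 59.1, 18.1, 54.2 and 19.3 CPM in LPS+TSLP replicates 1 to 4, against 75.4 to 92.2 CPM in the LPS libraries. Replicates 2 and 4 were within the Vehicle range, and replicates 1 and 3 lay between Vehicle and LPS. The log2 fold change was -1.18 ± 0.44 (SE, adjusted p = 0.589, unadjusted p = 0.0208, edgeR). Over all 22 alternatives it stayed between -1.49 and -0.93 (adjusted p = 0.322 to 0.903), and without LPS+TSLP replicate 1 it was -1.49 (adjusted p = 0.493).

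Fcgr1 split in the same way, at 120, 28.5, 71.9 and 22.6 CPM in LPS+TSLP replicates 1 to 4, a 5.34-fold range, against a 1.12-fold range in LPS. Replicate 1 was above every LPS library, replicate 3 was just below the LPS libraries, and replicates 2 and 4 were within the Vehicle range. For Fcgr1 the log2 fold change was -0.35 ± 0.53 (SE, adjusted p = 0.895, edgeR), and without 1 library it ranged from -0.93 (LPS+TSLP replicate 1 left out, adjusted p = 0.532) to -0.05 (LPS+TSLP replicate 4 left out, adjusted p = 0.982), with -0.12 without LPS+TSLP replicate 2.

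Fcgr2b measured 123, 144, 198 and 85.8 CPM in LPS+TSLP replicates 1 to 4, overlapping both other groups. Its log2 fold change against LPS was -0.35 ± 0.39 (SE, adjusted p = 0.842, edgeR). Fcgr3 measured 102, 109, 167 and 97.1 CPM, with replicate 3 apart from the others, and its log2 fold change was -0.42 ± 0.33 (SE, adjusted p = 0.784, edgeR). Fcer1g measured 304, 272, 362 and 135 CPM, lowest in replicate 4, at a log2 difference of -0.48 ± 0.32 (SE, adjusted p = 0.735, edgeR). For these 3 genes the LPS+TSLP and LPS libraries overlapped, and 1 library could decide the size of the value. Fcgr2b was at -0.10 and Fcgr3 at -0.21 without LPS replicate 3, and Fcgr2b at -0.15 without LPS+TSLP replicate 4. Fcer1g was at -0.24 without LPS+TSLP replicate 4 and at -0.25 without LPS replicate 1. Fcgr2b was at -0.58 without LPS+TSLP replicate 3 and at -0.52 without LPS replicate 1. None of these values passed the test.

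Set against Vehicle, LPS+TSLP lungs had Fcer1g as the only member called, 3.38-fold higher. All 4 LPS+TSLP libraries were above the highest Vehicle library, 98.1 CPM. The log2 fold change was 1.76 ± 0.34 (SE, adjusted p = 0.00936, edgeR). In this comparison 8.82% of the tested genes were called higher, 14.2% in either direction, and 15.7% had all LPS+TSLP libraries above all Vehicle libraries. The Fcer1g call was lost without Vehicle replicate 1 (1.57, adjusted p = 0.0619) or Vehicle replicate 2 (1.79, adjusted p = 0.0535).

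The 4 receptors overlapped with Vehicle. On the log2 scale Fcgr2b was at 1.11 ± 0.40 (SE, adjusted p = 0.0839, edgeR), Fcgr1 at 0.99 ± 0.55 (adjusted p = 0.230), Fcgr4 at 0.96 ± 0.46 (adjusted p = 0.168) and Fcgr3 at 0.68 ± 0.34 (adjusted p = 0.183). Fcgr2b was called by the DESeq2 Wald test (1.13, adjusted p = 0.0287) and without LPS+TSLP replicate 4 (1.32, adjusted p = 0.0441). Without Vehicle replicate 3, the highest Vehicle library, both Fcgr2b (1.67, adjusted p = 0.0240) and Fcgr3 (1.19, adjusted p = 0.0314) were called. Without LPS+TSLP replicate 1 the Fcgr1 value was 0.43 (adjusted p = 0.537), and that of Fcgr4 was 0.66 (adjusted p = 0.309). The median of the 5 members was 0.99, against 0.0269 over all tested genes. This comparison shares its LPS+TSLP and Vehicle libraries with the other comparisons, so their values are not independent. LPS against Vehicle and LPS+TSLP against LPS likewise share the LPS libraries.

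**Figure D2:**
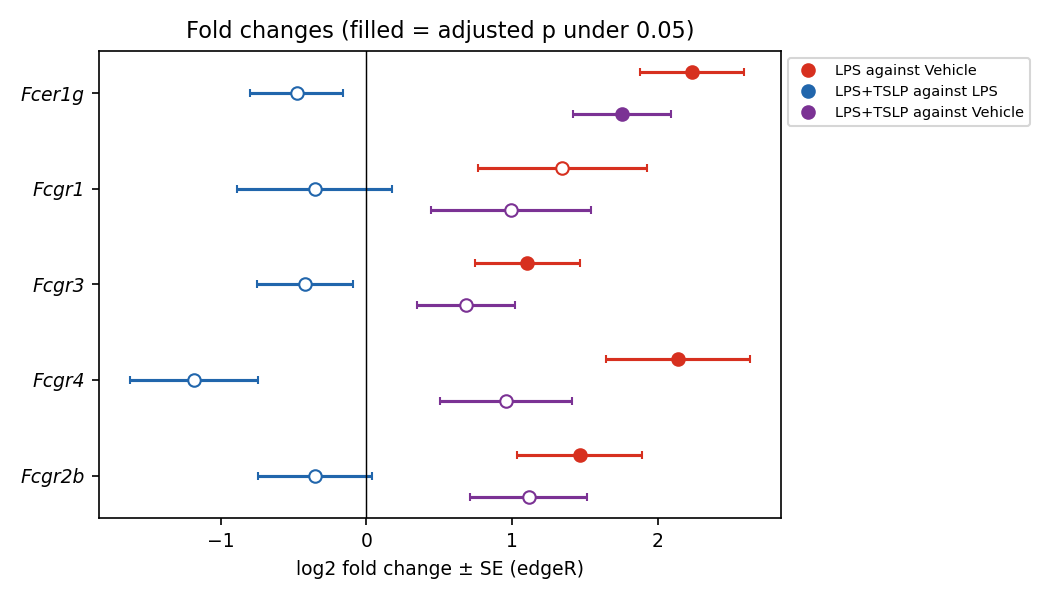
Log2 fold change ± SE (edgeR) of each gene in the 3 comparisons of groups named in the legend; filled points have an adjusted p under 0.05. Filled are 4 of 5 genes for LPS set against Vehicle and Fcer1g for LPS+TSLP set against Vehicle, and no gene for LPS+TSLP set against LPS.

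Levels of different genes were compared per kilobase of exon (CPM per kb). Fcer1g led in every group, at 307 ± 110 in LPS+TSLP, 428 ± 96.0 in LPS and 90.9 ± 24.4 CPM per kb in Vehicle (SD). Fcgr3 was the next, at 68.4 ± 18.7, 91.5 ± 22.6 and 42.6 ± 22.6 CPM per kb in the same groups, and Fcgr4 followed at 29.98 ± 17.5, 67.9 ± 6.998 and 15.4 ± 7.72 CPM per kb. In Vehicle the lowest Fcer1g library (64.3) fell short of the highest Fcgr3 library (67.7), while in LPS+TSLP and LPS these genes did not overlap.

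Fcgr2b, at 23.8 ± 8.08 in LPS+TSLP, 30.3 ± 9.46 in LPS and 10.98 ± 6.38 CPM per kb in Vehicle, and Fcgr1, at 23.5 ± 17.5, 30.1 ± 1.81 and 11.8 ± 5.92 CPM per kb, were the lowest and did not differ beyond their spread. Fcgr4 stood clear of both in LPS but overlapped them in LPS+TSLP and Vehicle. The order of Fcgr2b depends on the length used, since its annotated exons total 5790 bases and its principal transcript 3544. With the principal transcript, mean Fcgr2b was at 38.8 ± 13.2, 49.5 ± 15.5 and 17.9 ± 10.4 CPM per kb (SD) in LPS+TSLP, LPS and Vehicle. These means were above those of Fcgr1 in each group and above those of Fcgr4 in LPS+TSLP and Vehicle. Single libraries differed. With these lengths the Fcgr4 to Fcgr2b ratio reached 1.36 in LPS+TSLP and 1.04 in Vehicle, and the Fcgr1 to Fcgr2b ratio reached 1.34 in LPS+TSLP.

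The balance of activating to inhibitory receptor RNA was described by ratios of reads per kilobase within each library, with no test. Per library, the sum of Fcgr1, Fcgr3 and Fcgr4 over Fcgr2b was 7.19, 3.54, 4.89 and 5.40 in LPS+TSLP replicates 1 to 4, 8.18, 5.97 and 5.43 in LPS, and 7.11, 6.59 and 6.01 in Vehicle. The groups overlapped, and the mean log2 ratio differed by -0.03 between LPS and Vehicle (pooled SD 0.24) and by -0.34 between LPS+TSLP and LPS (pooled SD 0.38), both less than the pooled SD. Between LPS+TSLP and Vehicle it differed by -0.36 (pooled SD 0.34), slightly more than the pooled SD, and by -0.19 without LPS+TSLP replicate 2, where the difference from LPS was -0.16. Without LPS replicate 1 the difference was -0.20 between LPS and Vehicle and -0.16 between LPS+TSLP and LPS.

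Individual activating receptors departed from that sum in these libraries, again without a test. How often ratios of other genes separate by group was not examined. The Fcgr4 to Fcgr2b ratio was 2.22, 0.579, 1.26 and 1.04 in LPS+TSLP replicates 1 to 4, 3.28, 2.05 and 1.82 in LPS, and 1.70, 1.36 and 1.34 in Vehicle. Each LPS library was above each Vehicle library, with a difference in mean log2 ratio of 0.66 (pooled SD 0.34), which was 0.41 without LPS replicate 1, the library with Xist. Between LPS+TSLP and LPS the difference was -1.02 (pooled SD 0.68), and the groups overlapped through LPS+TSLP replicate 1. Without that library the difference was -1.34 and every LPS+TSLP library was below every LPS library, whereas it was -0.69 without LPS+TSLP replicate 2 and -0.77 without LPS replicate 1.

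The Fcgr3 to Fcgr2b ratio went the other way in LPS. It was 2.78, 2.52, 2.82 and 3.77 in LPS+TSLP replicates 1 to 4, 3.46, 2.84 and 2.91 in LPS, and 4.48, 3.73 and 3.78 in Vehicle. All LPS libraries were below all Vehicle libraries, with a difference in mean log2 ratio of -0.38 (pooled SD 0.15). The Fcgr1 to Fcgr2b ratio overlapped between all groups, at 0.443 to 2.19 in LPS+TSLP, 0.695 to 1.44 in LPS and 0.891 to 1.503 in Vehicle.

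**Figure D3:**
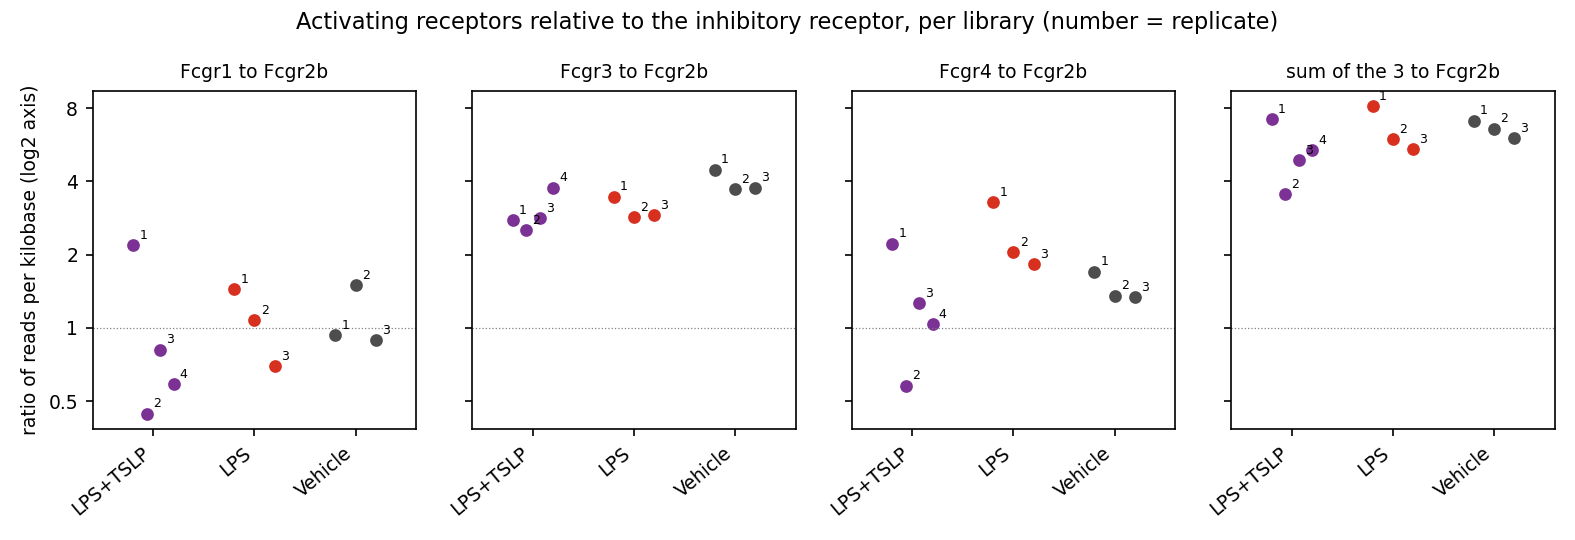
Reads per kilobase of Fcgr1, Fcgr3, Fcgr4 and their sum divided by those of Fcgr2b (log2 axis), 1 point per library numbered by replicate. The Fcgr4 ratio is 1.82 to 3.28 in LPS, above the 1.34 to 1.70 of Vehicle, the Fcgr3 ratio is 2.84 to 3.46 in LPS, below the 3.73 to 4.48 of Vehicle, and the summed ratio overlaps between groups.

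As shares of the length-corrected RNA of the 4 receptors, Fcgr4 made up 12.7% to 27.1% in LPS+TSLP, 28.4% to 35.7% in LPS and 17.9% to 20.98% in Vehicle. Its share in LPS was above that of every other library. Fcgr3 made up 33.9% to 59.0% in LPS+TSLP, 37.7% to 45.3% in LPS and 49.2% to 55.2% in Vehicle, and was the largest receptor share in every library. Fcgr2b made up 12.2% to 22.03%, 10.9% to 15.6% and 12.3% to 14.3% in the same groups.

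Relative to the signalling chain, Fcgr3 was scarcer after treatment. The Fcgr3 to Fcer1g ratio was 0.169 to 0.363 in LPS+TSLP and 0.138 to 0.304 in LPS, both below the 0.374 to 0.603 of Vehicle. The ratios of Fcgr1 and Fcgr2b to Fcer1g also had lower means after treatment, but overlapped with Vehicle. Their mean log2 ratios differed by -0.74 and -0.66 between LPS and Vehicle (pooled SD 0.43 and 0.61). Between LPS+TSLP and Vehicle they differed by -0.87 and -0.48 (pooled SD 0.70 and 0.37). The Fcgr4 to Fcer1g ratio was 0.0463 to 0.135 in LPS+TSLP, 0.131 to 0.190 in LPS and 0.136 to 0.214 in Vehicle. LPS+TSLP lay below Vehicle for this ratio, whereas LPS and Vehicle overlapped, since Fcgr4 and Fcer1g moved by nearly the same factor with LPS. Fcer1g also serves other receptors, which are described among the related genes.

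Across the 10 libraries the receptors formed 2 closely matched pairs on the log2 CPM scale. Fcgr2b and Fcgr3 had a Pearson r of 0.98, and 0.96 after group means were removed. Fcgr1 and Fcgr4 had an r of 0.90, and 0.91 after group means were removed. All other member pairs lay between 0.71 and 0.87, and between 0.49 and 0.75 within groups. These are descriptions over libraries that share scaling and treatment, and Fcgr2b and Fcgr3 also share the part of their reads given above. Each pair thus joined genes of unlike role or position: the first an inhibitory and an activating receptor from the same cluster, the second activating receptors from different chromosomes.

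**Figure D4:**
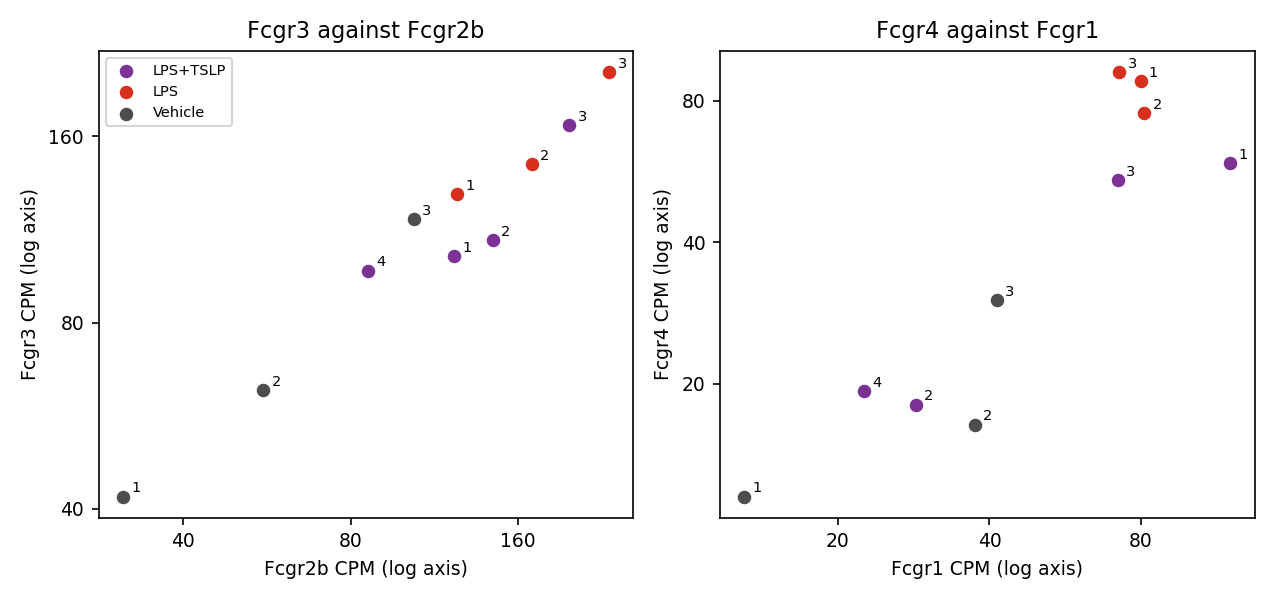
CPM of Fcgr3 against Fcgr2b (left) and of Fcgr4 against Fcgr1 (right), log axes, 1 point per library numbered by replicate. On the left all libraries follow a common line (r = 0.98). On the right LPS+TSLP replicates 2 and 4 lie among the Vehicle libraries, and replicates 1 and 3 lie nearer to LPS (r = 0.90).

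The proximal promoters of the receptors with a motif match are shown as a description, and a role of the motifs in the pairs was not tested. Each is the 120 bases before a RefSeq start site (GRCm38.p6), on the gene's own strand. Capitals mark matches on either strand to the box of the myeloid factor PU.1 (GAGGAA, or TTCCTC on the other strand), to GAS, the interferon-gamma-activated element (TTCNNNGAA), and to the core of ISRE, the interferon-stimulated element (GAAA, any pair of bases, GAAA).
Fcgr1 (chr3:96293970-96294089, minus strand): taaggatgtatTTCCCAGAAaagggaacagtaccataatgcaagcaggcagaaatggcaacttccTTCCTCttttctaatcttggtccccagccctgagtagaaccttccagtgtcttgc
Fcgr4 (chr1:171018806-171018925, plus strand): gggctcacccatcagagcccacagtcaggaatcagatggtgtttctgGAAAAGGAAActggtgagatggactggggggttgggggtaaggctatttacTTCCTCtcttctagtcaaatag
Fcgr3 (chr1:171059404-171059523, minus strand): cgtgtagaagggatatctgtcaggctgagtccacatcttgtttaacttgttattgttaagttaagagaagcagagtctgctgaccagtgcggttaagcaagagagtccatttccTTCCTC
The PU.1 box was found 55 bases before the start in Fcgr1, 22 in Fcgr4 and 6 in Fcgr3. Fcgr3 had another RefSeq start site, with the box 15 bases before it, and the Fcgr3 window shown lay within the gene's annotated span. The box occurs in 23.3% of the 32851 RefSeq promoter windows of 250 bases. Fcgr1 alone had a GAS match, 109 bases before its start (7.02% of windows), and Fcgr4 alone had an ISRE core match, 73 bases before its start (2.98% of windows). None of the matches overlapped. The 250-base windows of Fcgr2b and Fcer1g held none of these letters, and a match or its lack says nothing here about binding.

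Genes whose log2 CPM followed each member most closely over the 10 libraries were named among 13812 protein-coding genes, as a description. For Fcgr1 they were Ms4a4c, Trim30a and Calhm6 (r = 0.97 each). For Fcgr4 they included Ido1, the tryptophan-degrading enzyme (r = 0.97), and AB124611 (r = 0.96). For Fcgr2b they were Lacc1 (r = 0.97), the lipopeptide receptor Tlr1 (r = 0.97) and Slfn8 (r = 0.96). For Fcgr3 they were Mxd1, the NF-kB inhibitor Nfkbie and the pyrin gene Mefv (r = 0.98 each). For Fcer1g they were Lst1, the proteasome subunit Psma4 and the survival gene Bcl2a1b (r = 0.98 each). No gene name occurred for more than 1 member. Fcer1g had 398 genes with an r above 0.9, against 102 to 139 for the receptors.

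No tested gene next to the members was called higher in LPS. Fcrla, an Fc receptor-like gene of B cells 31034 bases from the receptor cluster, fell in LPS, with 3.90 ± 0.73 CPM in LPS and 9.17 ± 4.10 CPM in Vehicle (SD, log2 fold change -1.23, adjusted p = 0.0443, edgeR). Cfap126, a cilia gene on the other side, had a log2 fold change of 0.33 (adjusted p = 0.728). Apoa2, beside Fcer1g, was too low to be tested, and Hist2h2bb and BC107364 beside Fcgr1 had no counts. Genes that overlap the members had at most 8 counts (Gm38204, antisense to Fcgr2b) and 2 counts (Mir6546 in Fcgr3, Gm26110 in Fcgr4) in any library.

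Related receptors that signal through an ITAM or an ITIM also had members that rose with LPS. Of 9 tested genes listed as ITAM adaptors or receptors that pair with the Fcer1g chain, 5 were called higher (55.6%, against 14.2% of all tested genes) and none lower in LPS against Vehicle (median log2 fold change 1.16). They were Tyrobp, the ITAM adaptor DAP12 (1.16, adjusted p = 0.00822), Clec4d (3.27, adjusted p = 0.00936) and Clec4e (3.44, adjusted p = 0.0138), C-type lectins that sense mycobacterial glycolipids, as well as Hcst and Clec4n. Hcst, which the list also counts, is an adaptor without an ITAM. Clec4e averaged 210 ± 90.6 CPM in LPS and 19.3 ± 20.1 CPM in Vehicle (SD). Of 13 tested ITIM receptors, 9 were called higher (69.2%) and 1 lower (median 1.42). Clec4a2 (2.06, adjusted p = 0.00227), Siglece (2.49, adjusted p = 0.00641) and Clec12a (1.48, adjusted p = 0.00788) were higher, and Cd22, an inhibitory receptor of B cells, was lower (-1.30, adjusted p = 0.0239). Activating and inhibitory receptors thus both had called members outside the Fc gamma receptors too.

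The kinases and adaptors downstream gave mixed calls, with genes called in both directions. Of 22 ITAM signalling genes, 6 were called higher (27.3%, against 14.2% of all tested genes) and 1 lower (median 0.51). In either direction the share was 31.8%, against 24.9% of all tested genes. Malt1, a protease of the CARD9 pathway (2.20, adjusted p = 0.00953), the exchange factor Vav1 (1.37, adjusted p = 0.0118) and the adaptor Lcp2 (1.28, adjusted p = 0.0218) rose, and Btk and Bcl10 were also among the genes called higher, while Plcg1 fell (-0.81, adjusted p = 0.0218). Syk itself had 199 ± 94.4 CPM in LPS and 141 ± 21.9 CPM in Vehicle (0.50, adjusted p = 0.259). Of 12 genes of the inhibitory arm, 3 were called higher (25%) and 1 lower (median 0.04), 33.3% in either direction. The docking proteins Dok1 (0.73, adjusted p = 0.0129), Dok2 (1.32, adjusted p = 0.0186) and Dok3 rose, and the phosphatase Inppl1 fell (-0.75, adjusted p = 0.0225). Inpp5d, the phosphatase that Fcgr2b recruits, was at 124 ± 24.4 CPM in LPS and 122 ± 16.4 CPM in Vehicle (0.02, adjusted p = 0.952), and Ptpn6 was at 179 ± 21.97 and 105 ± 12.2 CPM (0.77, adjusted p = 0.0512).

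The phagocyte NADPH oxidase, an effector of the activating receptors, had 5 of 6 subunit genes (83.3%, against 14.2% of all tested genes) called higher (median 1.23). They included Ncf1 (1.83, adjusted p = 0.00303), Cyba (1.54, adjusted p = 0.00605) and Ncf4 (1.57, adjusted p = 0.00833). Of 13 tested cytokine, receptor and transcription factor genes known to set Fc gamma receptor expression, 7 were called higher (53.8%, against the same 14.2%) and none lower (median 0.995). C5ar1, the anaphylatoxin receptor (1.60, adjusted p = 0.00936), Irf1 (1.36, adjusted p = 0.0271) and Ifng (3.33, adjusted p = 0.0336) were among them, as were Spi1, which encodes PU.1, Il4 and Il10. Ifng was low, at 7.75 ± 4.15 CPM in LPS and 0.759 ± 0.378 CPM in Vehicle. Interferon-gamma raises the activating Fcgr1 in cultured myeloid cells. Interleukin-4 and interleukin-10 have mixed effects on Fc gamma receptors there, so the list holds opposing agents.

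No ligand gene and no other Fc receptor gene was called higher in LPS. None of the 4 IgG heavy chain genes was called (median 0.06): Ighg2b was at 16.1 ± 3.59 CPM in LPS and 30.6 ± 6.49 CPM in Vehicle (-0.93, adjusted p = 0.410). Of 11 tested receptors for other antibody classes and Fc receptor-like genes, none was called higher and 3 were lower (27.3%, against 10.7% of all tested genes, median -0.27). Those were Fcmr, the IgM receptor (-1.28, adjusted p = 0.0158), Fcrls (-1.77, adjusted p = 0.0298) and Fcrla. Log2 fold changes over the 11 genes ran from -1.77 to 1.97, and the gene with the highest value was not called. The neonatal receptor Fcgrt, which salvages IgG, was at 55.0 ± 20.8 CPM in LPS and 97.1 ± 29.9 CPM in Vehicle (-0.82, adjusted p = 0.0547). The high-affinity IgE receptor genes Fcer1a and Ms4a2, whose complex also uses the Fcer1g chain, were too low to be tested.

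**Figure D5:**
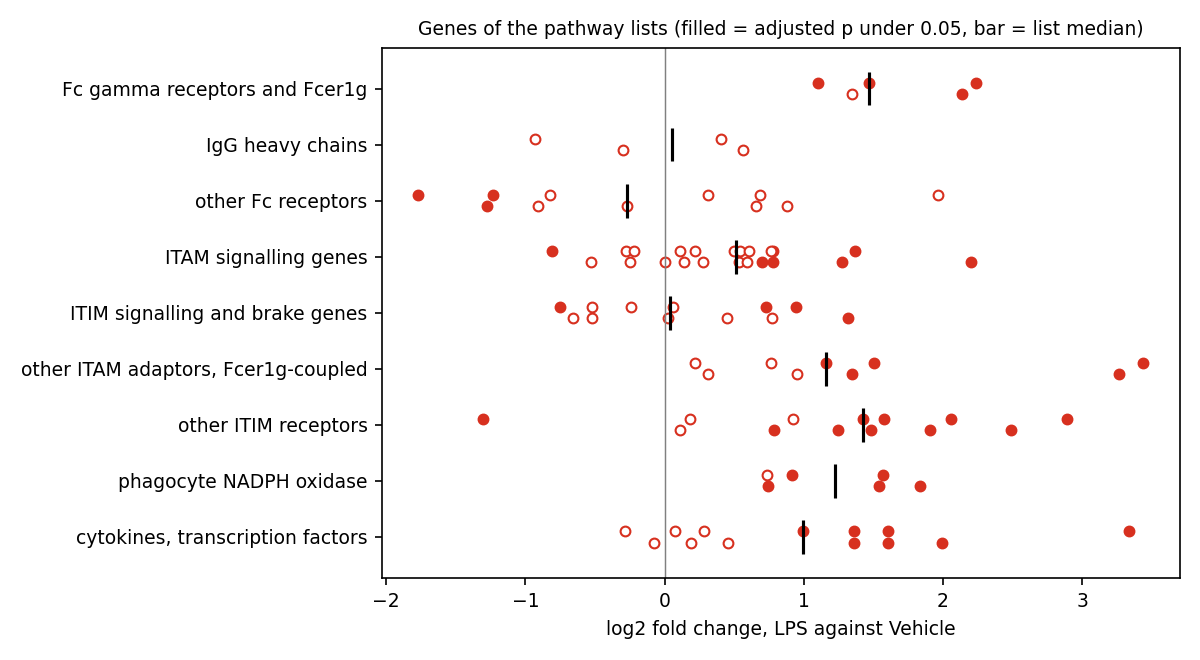
Log2 fold change in LPS against Vehicle of every tested gene in the Fc gamma receptor group and in 8 lists of related genes, filled where the adjusted p is under 0.05, with a bar at the list median. The medians of the Fc gamma receptors (1.47), the other ITIM receptors (1.42), the phagocyte oxidase (1.23) and the other ITAM adaptors (1.16) lie to the right, and those of the IgG heavy chains (0.06) and the other Fc receptors (-0.27) lie near or below 0.

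In LPS+TSLP against LPS none of the genes in these 8 lists was called. List medians were negative for 7 of the 8, from -0.80 for the ITAM adaptors to -0.08 for the ITIM signalling genes, and 0.21 for the other Fc receptors, against 0.0213 over all tested genes. Tyrobp (124 ± 35.7 CPM in LPS+TSLP and 215 ± 14.5 CPM in LPS), C5ar1 (45.4 ± 15.1 and 107 ± 23.7 CPM), Siglece (48.3 ± 21.7 and 99.7 ± 23.9 CPM) and Dok1 (39.3 ± 2.70 and 49.8 ± 8.66 CPM) had, like Fcgr4, every LPS+TSLP library below every LPS library. Their adjusted p-values were 0.589, 0.589, 0.598 and 0.616 (edgeR). These genes were named for their small adjusted p in LPS against Vehicle. That comparison uses the same LPS libraries, so the lack of overlap is not separate evidence. Of the other list genes named here, Btk and Il10 also had no overlap. Such genes were not counted over the whole lists. Over all tested genes, 3.54% had every LPS+TSLP library below every LPS library. In LPS+TSLP against Vehicle 3 of the 90 tested genes of the 8 lists were called (3.33%, against 14.2% of all tested genes), all higher: Malt1 (1.79, adjusted p = 0.0259), Clec4a2 (1.32, adjusted p = 0.0136) and Ncf1 (1.18, adjusted p = 0.0183).

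Marker genes of the cells that carry these receptors were summed per library. In LPS against Vehicle 1 of 9 was called for neutrophils, 1 of 10 for monocytes and interstitial macrophages, and 0 of 7 for B cells. Over all tested genes 14.2% were called higher and 24.9% in either direction. No marker was called in LPS+TSLP against LPS. The 9 neutrophil markers summed to 137 CPM in LPS+TSLP replicate 1 and 811 to 1120 CPM in the other LPS+TSLP libraries, 1648 to 2206 CPM in LPS, and 368 to 1209 CPM in Vehicle. In LPS the sum was above that of every other library, as was the level of Fcgr4, although only Ly6g of the 9 was called in LPS against Vehicle. Outside LPS the order of libraries differed. LPS+TSLP replicate 1 had the lowest neutrophil sum, 137 CPM, with Fcgr4 at 59.1 CPM. Vehicle replicate 3 had a sum of 1209 CPM, with Fcgr4 at 30.2 CPM. The 10 monocyte and interstitial macrophage markers summed to 1400, 779, 1291 and 726 CPM in LPS+TSLP replicates 1 to 4, 1218 to 1376 CPM in LPS and 682 to 1016 CPM in Vehicle. LPS+TSLP replicates 2 and 4, the libraries low in Fcgr1 and Fcgr4, were also low in this sum, and Ccr2 was the marker called in LPS against Vehicle.

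The 11 alveolar macrophage markers summed to 276 to 919 CPM in LPS+TSLP, 725 to 1193 CPM in LPS and 906 to 1224 CPM in Vehicle, with Marco called higher and Siglecf and Cidec lower in LPS against Vehicle. The 7 B cell markers summed to 92.4 to 158 CPM in LPS+TSLP, 59.9 to 109 CPM in LPS and 70.3 to 170 CPM in Vehicle, with none called. The 7 natural killer cell markers summed to 44.5 to 123 CPM in LPS+TSLP, 99.4 to 159 CPM in LPS and 60.1 to 141 CPM in Vehicle, with Klra8 and Klre1 called higher in LPS against Vehicle. The 6 pan-leukocyte genes summed to 1229 to 2220 CPM in LPS+TSLP, 1806 to 2574 CPM in LPS and 1437 to 1698 CPM in Vehicle. The 7 dendritic cell markers (121 to 144, 109 to 137 and 107 to 116 CPM), the 8 endothelial markers (2298 to 3550, 3266 to 3651 and 3604 to 4701 CPM) and the 8 mast cell and basophil markers (468 to 525, 423 to 466 and 571 to 592 CPM) are given in the same group order. In LPS against Vehicle 2 of the 6 pan-leukocyte genes were called higher and 3 of the 8 endothelial markers lower. Among dendritic cell markers 1 was called higher and 1 lower, and 1 of 6 tested mast cell and basophil markers was lower. Over all tested genes 14.2% were called higher and 10.7% lower. Of the defining markers, only Tpsb2 of mast cells had no counts in a whole group, LPS+TSLP. What part cell type content had in the receptor values was not tested.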

How the data were processed

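Total RNA of mouse lung was sequenced on Illumina libraries, per the labels' protocols. The deposited table held raw read counts per gene, made by the authors on GRCm38/mm10 with HTSeq 0.6.0, HISAT2 and CASAVA, per the submitters' processing notes. The annotation release and the strand setting were not given in the sources used here, so antisense reads could not be told apart. Symbols turned into dates (27) were restored by identifier, and positions and exon lengths came from GENCODE mouse release 21, which held 99.93% of the identifiers. Libraries were grouped by the treatment label. No library was a copy of another.

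Counts were filtered with filterByExpr, scaled by TMM and tested by the robust quasi-likelihood F test of edgeR 4.0.16 (R 4.3.3), with 10 libraries in 1 fit of 3 groups, 7 residual degrees of freedom, and Benjamini-Hochberg adjustment over all 17139 tested genes (two-sided, threshold 0.05). The test was run on simulated data first. Log2 CPM used a prior count of 2. Ratios used reads per kilobase of merged exons. The members and gene lists were chosen with earlier results of these data known. Beside the members, the text names up to 3 genes per list by adjusted p in LPS against Vehicle, the 3 most similar genes per member with a mean of at least 1 CPM, and the adjacent coding genes. A few genes that this rule selects are not reported here. Syk, Inpp5d, Ptpn6, Fcgrt and the further called genes of the lists were added after their values were seen. Alternatives used DESeq2 1.42.0, limma 3.58.1 (voom), other scalings and filters, a loess GC correction (span 0.3), a replicate block, and leaving out libraries. Promoter sequences are from RefSeq, GRCm38.p6, and all 5 members had an entry.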

Additional observations from a re-analysis of the deposited data

Results flagged for a closer look

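Fcgr3 in the LPS+TSLP group was set apart by its highest library. Replicate 3 measured 167 CPM, against 97.1 to 109 CPM in the other 3, and its gap to the nearest library was 0.834 of the group's range, just over Dixon's 95% critical value for 4 libraries. Chance flags about 1 in 20 groups, and 1 of the 13 groups of 4 libraries examined was flagged. The other LPS+TSLP values of the receptors, including the wide split of Fcgr1 and Fcgr4, did not exceed this limit.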

How the results depend on the processing

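No member changed direction in the 22 alternatives per comparison, 10 of which left out 1 library, and no scaling moved the median of all genes by 0.1 on the log2 scale. Leaving out 1 library moved the genes called to 1661 to 5424 in LPS against Vehicle (2522 without LPS replicate 1, 1661 and 1836 without Vehicle replicates 1 and 2), 0 to 1 in LPS+TSLP against LPS, and 516 to 3493 in LPS+TSLP against Vehicle (1038 and 1014 without LPS+TSLP replicates 2 and 3, 516 and 521 without Vehicle replicates 1 and 2). The ranges of log2 fold change in LPS against Vehicle were 1.14 to 2.02 for Fcgr2b, 0.82 to 1.61 for Fcgr3 and 1.88 to 2.62 for Fcgr4. In LPS+TSLP against Vehicle they were 0.79 to 1.67 for Fcgr2b, 0.40 to 1.19 for Fcgr3 and 1.57 to 2.02 for Fcer1g. Other calls that changed were Fcgr3 in LPS against Vehicle by library size only (1.03) and without both LPS replicate 1 and LPS+TSLP replicate 1 (1.25), Fcgr1 there with only the groups compared (1.37), and Fcgr2b in LPS+TSLP against Vehicle by the DESeq2 Wald test (1.13). The DESeq2 Wald test called 35 genes in LPS+TSLP against LPS and 3925 in LPS+TSLP against Vehicle, where removing the GC trend gave 1440 and leaving out both replicates 1 gave 3842. The causes were not tested. Libraries with equal replicate numbers deviated from their group means with correlations of -0.34 to 0.40, which passed 0.1 in 3 of 9 pairs, and 4 of 10 libraries matched their own number best, so no pairing was assumed. With the replicate block, Fcgr2b (1.41, adjusted p = 0.00878) and Fcgr3 (0.85, adjusted p = 0.0250) were called in LPS+TSLP against Vehicle, and no other member call changed. Lengths of principal transcripts, chosen after seeing the data, rescale every ratio but change no difference between groups for ratios of 2 genes. The summed ratio differed by -0.08 in LPS against Vehicle and by -0.29 in LPS+TSLP against LPS with these lengths.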
